A study of Mus musculus with 4 samples.

Results

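The G1-S set consists of 10 named genes that drive or restrain entry into S phase: the D cyclins Ccnd1, Ccnd2 and Ccnd3, the E cyclins Ccne1 and Ccne2, the kinases Cdk4, Cdk6 and Cdk2, the transcription factor E2f1 and the inhibitor Cdkn1a. The genes were given by symbol, and all 10 matched 1 Ensembl gene ID each. They were looked up among the 9225 distinct gene IDs that the authors list as related to differential m6A peaks. N6-methyladenosine (m6A) is a methyl mark on adenosines of messenger RNA. It was compared in MIN6 cells, a mouse insulinoma line (strain C57BL/6 per the labels) that stands in for pancreatic beta cells. All cells were grown in medium with 25 mM glucose, and dishes were transfected with 10 µg of control vector or of GR expression vector. The labels do not spell out GR, taken here to be the glucocorticoid receptor, and they do not name the promoter of the vector. RNA was taken 24 hours after transfection, and each arm had 1 input library and 1 anti-m6A immunoprecipitation (IP) library, 4 libraries in all.

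In the textbook scheme, mitogens raise D cyclins, which pair with CDK4 or CDK6 and begin to phosphorylate the retinoblastoma protein. This frees E2F factors, which switch on the E cyclins and genes of DNA replication, and cyclin E with CDK2 completes the step. CDKN1A (p21), a target of p53, binds and restrains these kinases. In mouse islets, cyclin D2 and CDK4 are known for their part in the growth of beta cell mass after birth.

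The files used here list genes and gene sets for GR against control and hold no value per library. For the G1-S genes there is no fold change, direction or peak position, and RNA levels in the input and sequencing depth are unknown. Each arm has 1 IP and 1 input library, so nothing below has a replicate check. What a line of the gene table stands for is not stated, so lines are given as lines and not as peaks. Of the 22 genes with a deposited peak in the authors' autophagy table, 13 are not in the gene table, so a gene missing from the gene table may still have a differential peak. None of the 10 G1-S genes is in the autophagy table. Of 9 beta cell marker genes 6 were listed (Ins1, Pdx1, Mafa, Nkx6-1, Nkx2-2 and Slc2a2, but not Ins2, Neurod1 or Iapp), and of 14 markers of other islet, exocrine, duct, stromal and blood cells 2 were (Gcg and Cd68), beside 25.6% of all protein-coding genes. These are counts of listed genes and not RNA levels.

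The transcription factor E2f1, the inhibitor Cdkn1a and 3 of the 5 cyclins were listed, and none of the 3 kinases was. Whether groups this small differ from each other or from all protein-coding genes was not tested. In all, 5 of the 10 genes were in the gene table (50.0%, exact Clopper-Pearson 95% interval 18.7% to 81.3%, counting error only). Among all 21900 protein-coding genes of the reference, 25.6% were listed, which lies inside that interval. Over all genes of the reference with a class, non-coding ones included, the share was 14.8%. All 10 genes are protein-coding, so this wider share is not a like comparison. On at least 2 lines were 4 of the 10 genes (40.0%, 12.2% to 73.8%), and 11.4% of protein-coding genes, just below that interval. Where a share lies against these intervals is not a test, because the 10 genes were chosen by name and are not replicates. Together the 10 genes took up 15 of the 17052 lines, and Ccne2 and E2f1 held 10 of these 15. The lines of each gene were identical in every column, so the 15 lines came to 5, 1 per listed gene, when identical lines were counted once.

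**Figure D1:**
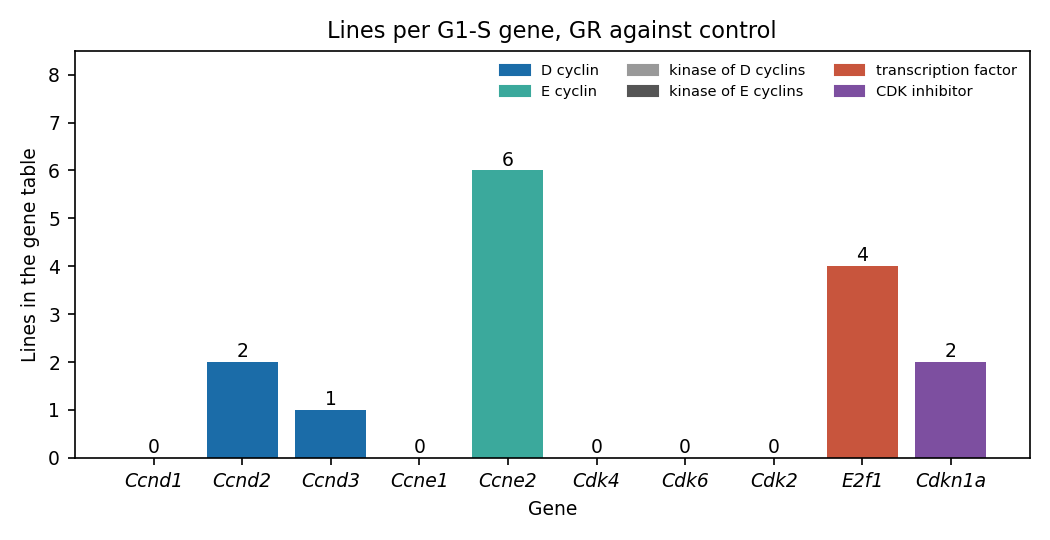
Number of lines (y axis) of each G1-S gene (x axis) in the authors' table of genes related to differential peaks, coloured by role. Ccne2 has 6 lines, E2f1 has 4, Ccnd2 and Cdkn1a have 2 each, Ccnd3 has 1, and Ccnd1, Ccne1, Cdk4, Cdk6 and Cdk2 have 0.

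Among the D cyclins, the subunits that link growth signals to CDK4 and CDK6, Ccnd2 had 2 lines and Ccnd3 had 1. Ccnd1 was absent. Ccnd2 (ENSMUSG00000000184) lies on chromosome 6 from 127125162 to 127152188 in GRCm38.p6, the assembly from which mm10 is made. Ccnd3 (ENSMUSG00000034165) lies on chromosome 17 from 47505051 to 47599689, and Ccnd1 (ENSMUSG00000070348) on chromosome 7 from 144929931 to 144939831. A D cyclin pseudogene, Ccnd3-ps (ENSMUSG00000080708), had 1 line of its own, as many as Ccnd3. The reference places Ccnd3-ps on another chromosome. How alike their sequences are was not examined, and whether reads were shared between them is not stated, so the line of either is uncertain.

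The E cyclins, which activate CDK2, differed in the same table. Ccne2 (ENSMUSG00000028212, chromosome 4, 11190433 to 11204779) had 6 lines. At least 6 lines were held by 127 protein-coding genes, 0.580% of all and 2.26% of the listed ones. Ccne1 (ENSMUSG00000002068, chromosome 7, 38097984 to 38107490), the paralog of Ccne2, was absent. Listed protein-coding genes had a median of 1 line, and 3112 of the 5609 had exactly 1. The file gives nothing by which to tell the 6 identical lines of Ccne2 apart. In the annotation Ccne2 overlaps Ints8, a subunit gene of the Integrator complex, over 5622 bases, and Ints8 had 1 line. Whether peaks were assigned by strand is not stated, so lines of overlapping genes cannot be told apart by their source.

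The catalytic subunits were all absent. Cdk4 (ENSMUSG00000006728, chromosome 10, 127063535 to 127067288) and Cdk6 (ENSMUSG00000040274, chromosome 5, 3341004 to 3531008) encode the kinases of the D cyclins. Cdk2 (ENSMUSG00000025358, chromosome 10, 128697938 to 128705051) encodes the kinase of the E cyclins. The annotated span of Pmel covers all 7114 bases of Cdk2, and Pmel, a pigment cell gene, had 2 lines. Tspan31, which meets the end of Cdk4 with an overlap of 2 bases, also had 2 lines. The gene table thus listed the genes that overlap Cdk2 and Cdk4 and not the kinase genes themselves.

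E2f1 (ENSMUSG00000027490, chromosome 2, 154559400 to 154569892), the activator that turns on S phase genes, had 4 lines, identical as well. As many lines or more were held by 2.50% of all protein-coding genes and by 9.75% of the listed ones. Cdkn1a (ENSMUSG00000023067, chromosome 17, 29090979 to 29100722), the p53-induced inhibitor, had 2 lines. Necab3, which overlaps E2f1 by 7 bases, had 1 line. No annotated gene overlaps Cdkn1a in the reference.

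The chance of being listed varied with gene length, so each gene was set beside genes of like length. Among 10 classes of equal size, the share listed was 5.53% in the shortest class, 32.9% in the fifth and 17.6% in the longest. Cdk6, which spans 190005 bases, falls in the longest class. Ccnd1, Ccne1, E2f1 and Cdkn1a span between 9507 and 10493 bases and fall in 1 class with 31.9% listed, and E2f1 and Cdkn1a were in the table while Ccnd1 and Ccne1 were not. Cdk4 and Cdk2, at 3754 and 7114 bases, fall in classes with 29.2% and 32.4% listed. The listed cyclins Ccne2, Ccnd2 and Ccnd3, at 14347, 27027 and 94639 bases, fall in classes with 32.9%, 27.1% and 24.2% listed. Length here is the annotated span from start to end on the genome and not that of the transcript.

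**Figure D2:**
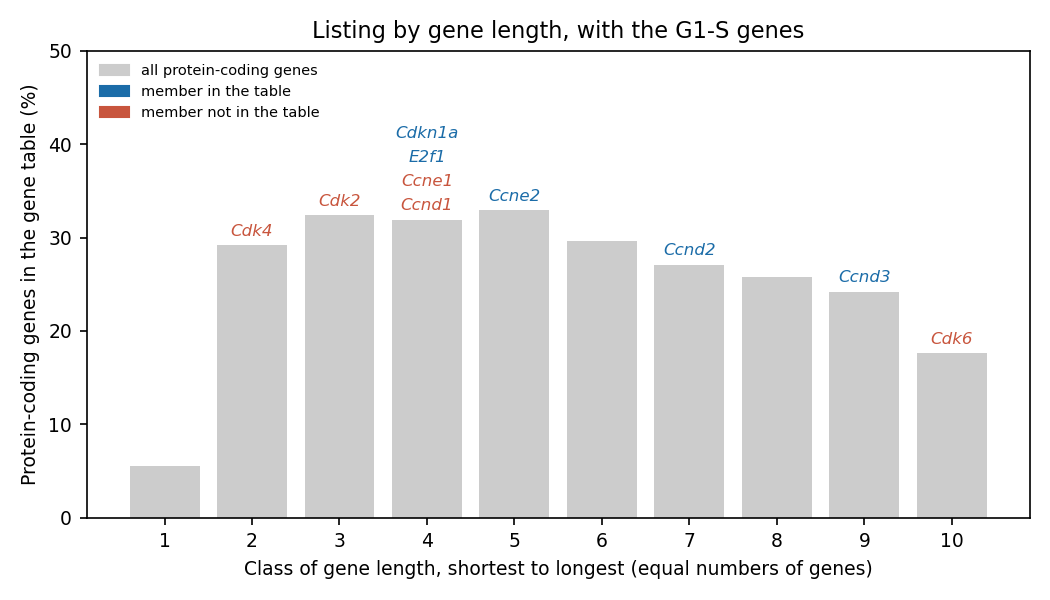
Share of protein-coding genes in the gene table (y axis, percent) in 10 classes of gene length from shortest to longest (x axis), with each G1-S gene written above its class. Blue names are in the table and red names are not; Ccnd1, Ccne1, E2f1 and Cdkn1a share a class with 31.9% listed.

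The wider G1-S pathway was described with 9 lists of 74 other genes, of which 39 (52.7%) were listed, close to the 50.0% of the 10 named genes and above the 25.6% of protein-coding genes. The lists were chosen with earlier results of these data known. Among the pocket proteins that hold E2F in check, Rb1 had 1 line, and Rbl1 and Rbl2 were absent. Of the other E2F and DP factors only 2 of 9 were listed, the repressors E2f8 with 2 lines and E2f6 with 1. E2f2, E2f3, E2f4, E2f5, E2f7, Tfdp1 and Tfdp2 were absent, so E2f1 was the only activator E2F listed.

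Of the other CDK inhibitors 3 of 6 were listed. Cdkn2c (p18), an inhibitor of CDK4 and CDK6, had 3 lines, Cdkn1b (p27) had 2 and Cdkn2b (p15) had 1, whereas Cdkn1c, Cdkn2a and Cdkn2d were absent. The genes that switch CDKs on or off by phosphorylation had 4 of 8 listed, each with 1 line: the phosphatases Cdc25a and Cdc25b, the inhibitory kinase Pkmyt1 and the CDK-activating cyclin Ccnh. Cdk7 and Mnat1, the partners of Ccnh in the CDK-activating kinase, were absent, as were Wee1 and Cdc25c.

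Turnover of cyclins and inhibitors by ubiquitin ligases had 6 of 10 genes listed. Skp2, the receptor that marks p27 for destruction, Fbxw7, the receptor for cyclin E, Rbx1 and Ambra1, the receptor for D cyclins, had 2 lines each. Cul1 and Fbxo4 had 1 line each, and Skp1, Cks1b, Cks2 and Fbxo31 were absent. Among upstream inputs 5 of 7 were listed: Gsk3b, the kinase that marks cyclin D1 for export and decay, with 3 lines, the p53 ligase gene Mdm2 with 2, and Myc, Mycn and Men1 with 1 each. Trp53 and Foxm1 were absent.

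Later in the cycle, the mitotic genes Ccnb1, Ccnb2 and Cdk1 had 1 line each, and Ccna1 and Ccna2 were absent. Replication licensing, which loads the MCM helicase at origins, had 10 of 18 genes listed. Cdc6, a loader, and Gmnn, an inhibitor of loading, had 3 lines each. Mcm3 and Mcm7 had 2, and Mcm2, Mcm5, Orc4, Cdt1, Cdc7 and Dbf4 had 1. The origin recognition genes Orc1, Orc2, Orc3, Orc5 and Orc6 were absent, as were Mcm4, Mcm6 and Cdc45. Of 8 enzymes of DNA synthesis known as E2F targets 5 were listed, Tk1 with 2 lines and Pcna, Rrm2, Pola1 and Ung with 1 each, and Tyms and Rrm1 were among those absent. Over all 84 genes, members included, 44 were listed. None of the 74 other genes had as many lines as E2f1 or Ccne2.

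**Figure D3:**
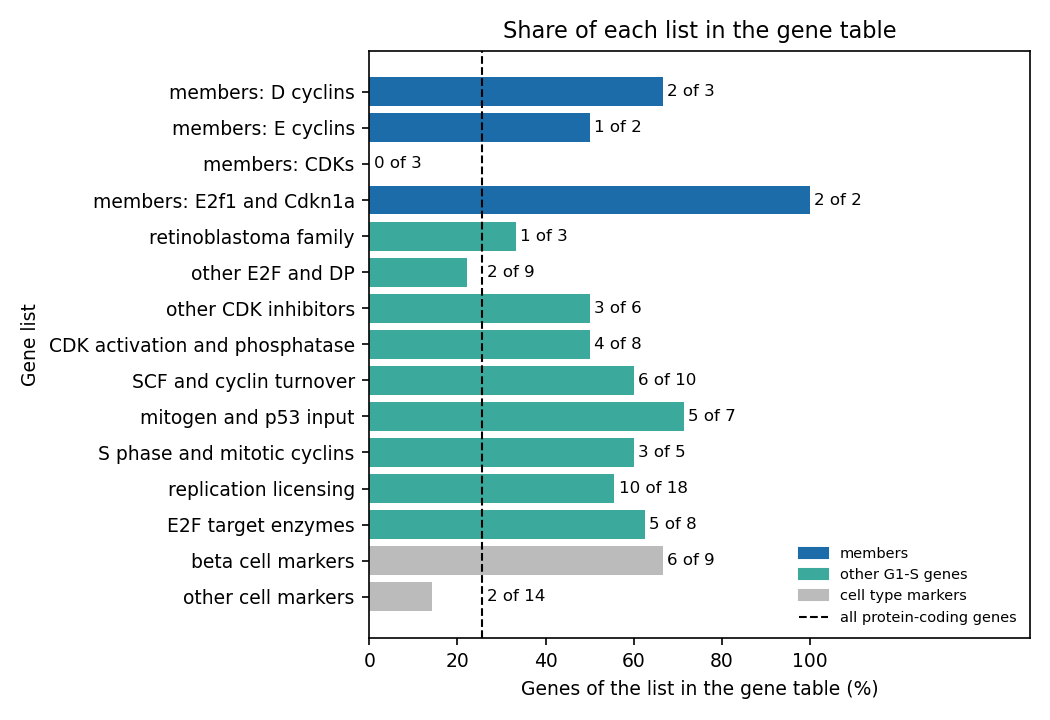
Share of each gene list found in the gene table (x axis, percent; number listed of number in the list beside each bar), with the share of all protein-coding genes as a dashed line at 25.6%. The CDKs of the set stand at 0 of 3 and the other E2F and DP factors at 2 of 9, while the remaining G1-S lists lie above the line; the lowest of these is the retinoblastoma family with 1 of 3.

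Listed cyclins and kinases were also counted over whole families, by gene name, a grouping added after the data were seen. Of 27 cyclin genes 14 were listed (51.9%), and Ccne2 had the most lines of any. The next was Ccnk, a partner of the transcriptional kinases CDK12 and CDK13, with 3 lines. Of 19 CDK genes 6 were listed (31.6%), closer to the 25.6% of protein-coding genes. Cdk11b had 4 lines and Cdk12 had 2, and Cdk1, Cdk9, Cdk13 and Cdk16 had 1 each. The 3 kinases of the G1-S set are thus among 13 absent CDK genes. Whether the shares of the families differ was not tested.

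The authors' KEGG table counts genes of pathways in an input list against a background. In the authors' deposited table, the row Cell cycle had 71 input IDs against 125 background genes, with p = 1.69e-12 and an adjusted p of 3.50e-11, and ranked 14th of 290 pathways by p. All 5 listed G1-S genes were in its input: Ccnd2, Ccnd3, Ccne2, E2f1 and Cdkn1a. The row was also credited with Cdk4 and Cdk2, although neither gene is in the gene table. Cdk4 was counted through both the unnamed gene models Gm48599 (ENSMUSG00000112559) and Gm45063 (ENSMUSG00000108002), and Cdk2 through Cdk3-ps (ENSMUSG00000092300). Cdk3-ps is the mouse Cdk3 gene, a close relative of Cdk2 that the reference classes as a transcribed pseudogene. Ccnd3 was counted a second time through Ccnd3-ps. By the Entrez gene number given for each ID, 7 of the 10 genes were thus in the row, carried by 9 IDs, of which 4 were not the genes themselves. Ccnd1, Ccne1 and Cdk6 were not counted under any ID.

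Such stand-ins made up 18 of the 71 IDs of the Cell cycle row. The 71 IDs mapped to 65 distinct Entrez genes, and 53 IDs carried the name of the gene they were counted as, 42.4% of the background number in place of 56.8%. Of the 18 IDs, 11 are classed as pseudogenes in the reference, 6 have no class there, and 1, E230016M11Rik, counted as the stress gene Gadd45a, is a long non-coding RNA. For 12 genes the stand-in was the sole entry. Besides Cdk4 and Cdk2 these were Cdk7 (Gm7496), Rbl2 (Gm45464) and Trp53 (Trp53-ps), all absent from the gene table, as well as Plk1, Hdac1, Cdc20, Cdc26, Gadd45a, Wee2 and Ywhaq. How the stand-ins bear on the deposited p of the row was not tested. No share of stand-ins over all pathways is given here, so the 18 IDs are not shown to be particular to Cell cycle. Repeated IDs varied between rows: HIF-1 signaling pathway had 102 IDs for 53 distinct Entrez genes. PI3K-Akt signaling pathway had 144 for 120, and Prolactin signaling pathway had 45 for 44.

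The same G1-S genes recur in many rows. Of the 290 pathways 34 held at least 1 of them under its own ID, and the authors' deposited table gives all 34 an adjusted p under 0.05, as it does 194 of all 290. Cdkn1a was in 24 rows, Ccnd2 in 15, E2f1 in 14, Ccne2 in 11 and Ccnd3 in 10. Cdk4 was credited in 19 rows and Cdk2 in 14, each time through other IDs, and both in 8 rows. In 5 further rows a stand-in for Cdk4 or Cdk2 was the only G1-S entry: Herpes simplex infection and Progesterone-mediated oocyte maturation for Cdk2, and AGE-RAGE signaling pathway in diabetic complications, T cell receptor signaling pathway and Tight junction for Cdk4.

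After Cell cycle, 5 rows held 4 of the genes. PI3K-Akt signaling pathway (144 input IDs against 350, adjusted p = 7.73e-13 in the authors' deposited table), Viral carcinogenesis (105 against 245, adjusted p = 1.60e-10 in the authors' deposited table) and p53 signaling pathway (43 against 68, adjusted p = 3.62e-08 in the authors' deposited table) shared Ccnd2, Ccnd3, Ccne2 and Cdkn1a. HTLV-I infection (121 against 295) held E2f1 in place of Ccne2, and MicroRNAs in cancer (73 against 281, adjusted p = 0.0139 in the authors' deposited table) held Ccnd2, Ccne2, E2f1 and Cdkn1a. Of these 5, only MicroRNAs in cancer contained no stand-in for a G1-S gene. Ccne2, E2f1 and Cdkn1a together were in Pathways in cancer (161 against 398), Hepatitis B (70 against 146) and Prostate cancer (50 against 89). Measles (46 against 139) held Ccnd2, Ccnd3 and Ccne2, and Jak-STAT signaling pathway (50 against 161) held Ccnd2, Ccnd3 and Cdkn1a. These rows share most of their G1-S entries and are not independent of each other.

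**Figure D4:**
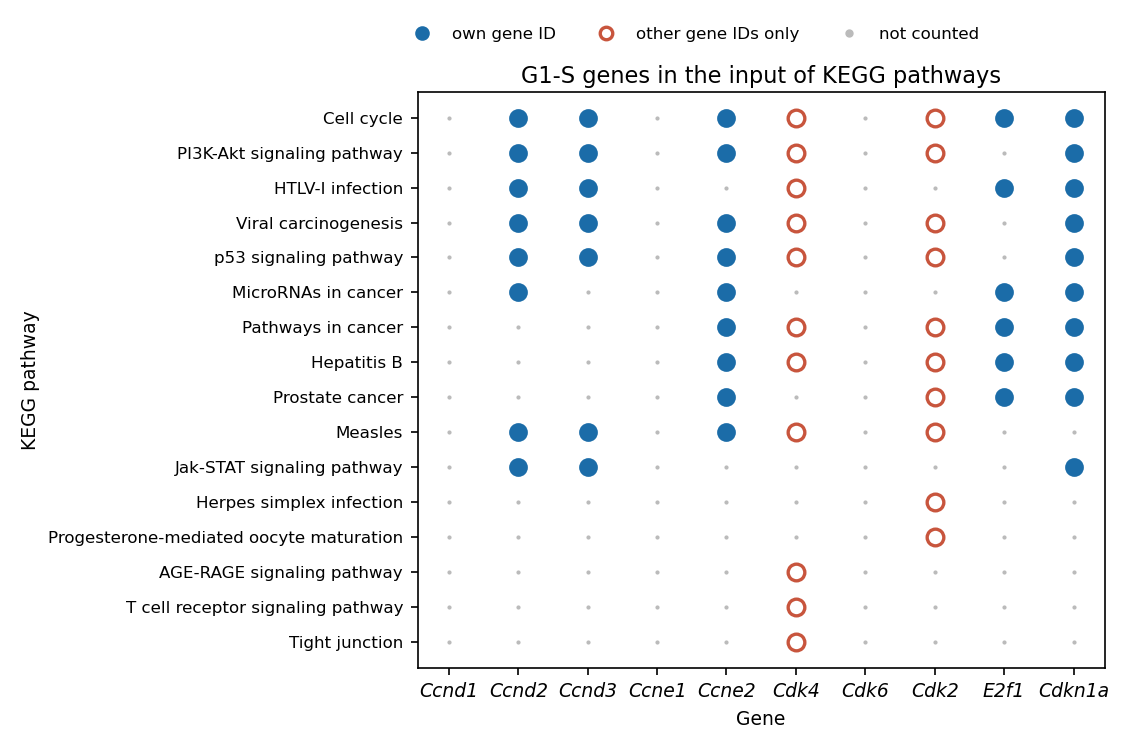
G1-S genes (x axis) in the input of Cell cycle, the next 10 KEGG pathways by number of G1-S genes, and the 5 pathways with stand-ins only (y axis). Filled points mark genes counted under their own ID, open points mark genes counted only through other IDs, and small dots mark genes not counted; all points of Cdk4 and Cdk2 are open, and Ccnd1, Ccne1 and Cdk6 have none.

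At least 1 of the 5 listed genes was held by 700 of the 16568 terms of the deposited Gene Ontology (GO) table. Cdkn1a was in 437 terms, E2f1 in 312, Ccnd3 in 248, Ccnd2 in 185 and Ccne2 in 150. These numbers describe how richly each gene is annotated. Of the 700 terms 407 held 1 of the genes, 195 of them Cdkn1a alone and 133 E2f1 alone, and 49 terms held all 5. The D cyclins shared 130 terms, 70.3% of those of Ccnd2 and 52.4% of those of Ccnd3, while Ccne2 and E2f1 shared 72, 48.0% and 23.1% of theirs. No term held Cdk4, Cdk6, Cdk2, Ccnd1 or Ccne1 in its gene list. The stand-ins for Cdk4 and Ccnd3 were in no term either, and Cdk3-ps was in 6.

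The authors' deposited table gives every GO term a p of 1, raw and corrected, so terms are described by their share of listed genes. Its stated totals are 10022 peak genes out of 20770 background genes (48.3%), but its gene lists hold 5409 distinct IDs (26.0%), and what the larger number counts is not stated. G1/S transition of mitotic cell cycle, the smallest term with all 5 genes, had 58 of 160 genes listed (36.2%, exact 95% interval 28.8% to 44.2%). Its interval lies above 26.0% and below 48.3%. This term and those below were picked for holding listed genes, which raises their shares by itself. Where their shares lie against 26.0% is therefore not a test. In all 16568 terms the count of listed genes equals the distinct IDs listed for the term. The share of 26.0% is counted in that way, whereas the stated total of 10022 is not matched by the distinct IDs. The 58 genes had a median of 2 lines. Ccne2 and Rhou had the most with 6 each, followed by Lats1, a kinase gene of the Hippo pathway, with 5, and by E2f1, Klf4 and Klf11 with 4. Beside the 5 genes, 9 others of the lists above were in this term, Cdkn1b, Cdkn2b, Cdkn2c, Cdc25a, Dbf4, E2f6, Mdm2, Rb1 and Skp2.

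The next 9 terms by size, of the 49 with all 5 genes, had shares from 35.3% to 39.0%. Cell cycle G1/S phase transition had 65 of 178 genes (36.5%), mitotic cell cycle phase transition 129 of 333 (38.7%), cell cycle phase transition 143 of 374 (38.2%), regulation of mitotic cell cycle 186 of 487 (38.2%) and regulation of cell cycle process 219 of 580 (37.8%). Mitotic cell cycle process had 246 of 638 (38.6%) and mitotic cell cycle 308 of 789 (39.0%). The molecular functions protein kinase binding, with 250 of 708 (35.3%), and kinase binding, with 282 of 788 (35.8%), also held all 5. The cell cycle terms share many genes, as do both binding terms, so these shares are not separate observations.

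The 7 smallest terms with at least 3 of the genes, picked after the data were seen, had shares from 39.0% to 51.0%. Being picked for holding listed genes raises these shares by itself, so no comparison with 26.0% or 48.3% is drawn. Whether these 7 terms differ from the terms above was not tested. The cyclin-dependent protein kinase holoenzyme complex had 26 of 51 genes listed (51.0%, exact 95% interval 36.6% to 65.2%), among them Ccnd2, Ccnd3, Ccne2 and Cdkn1a. Cyclins made up 13 of the 26 and CDKs 4 (Cdk1, Cdk9, Cdk12 and Cdk13). How many of the 51 genes are cyclins or CDKs is not known here. These counts may therefore only mirror the make-up of the term. The most lines in this term, 12, belonged to Taf7, a subunit gene of the general transcription factor TFIID. Cyclin-dependent protein serine/threonine kinase regulator activity had 20 of 42 genes (47.6%, 32.0% to 63.6%), and positive regulation of cyclin-dependent protein kinase activity had 16 of 33 (48.5%, 30.8% to 66.5%). Serine/threonine protein kinase complex had 39 of 94 (41.5%, 31.4% to 52.1%). Regulation of cyclin-dependent protein kinase activity had 34 of 79 (43.0%, 31.9% to 54.7%), and its serine/threonine kinase subset 32 of 75 (42.7%, 31.3% to 54.6%). Regulation of G1/S transition of mitotic cell cycle, which held E2f1 but not Ccne2, had 39 of 100 (39.0%, 29.4% to 49.3%).

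The smallest term of at least 10 background genes differed for each gene. For Ccne2 it was DNA replication initiation, with 12 of 28 genes listed (42.9%, 24.5% to 62.8%). For Cdkn1a it was the p53 response that ends in cell cycle arrest, with 5 of 10 (50.0%, 18.7% to 81.3%), and for Ccnd2 cellular response to X-ray, with 5 of 12 (41.7%, 15.2% to 72.3%). For Ccnd3 and E2f1 the smallest terms lay outside the cell cycle, hyaluronan biosynthetic process with 4 of 13 (30.8%) and fat cell proliferation with 2 of 11 (18.2%). All 5 shares have wide intervals, and those of Ccne2, Cdkn1a, Ccnd2, Ccnd3 and E2f1 each include 26.0% and 48.3%. Each of these terms was picked for holding a listed gene, which raises its share.

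**Figure D5:**
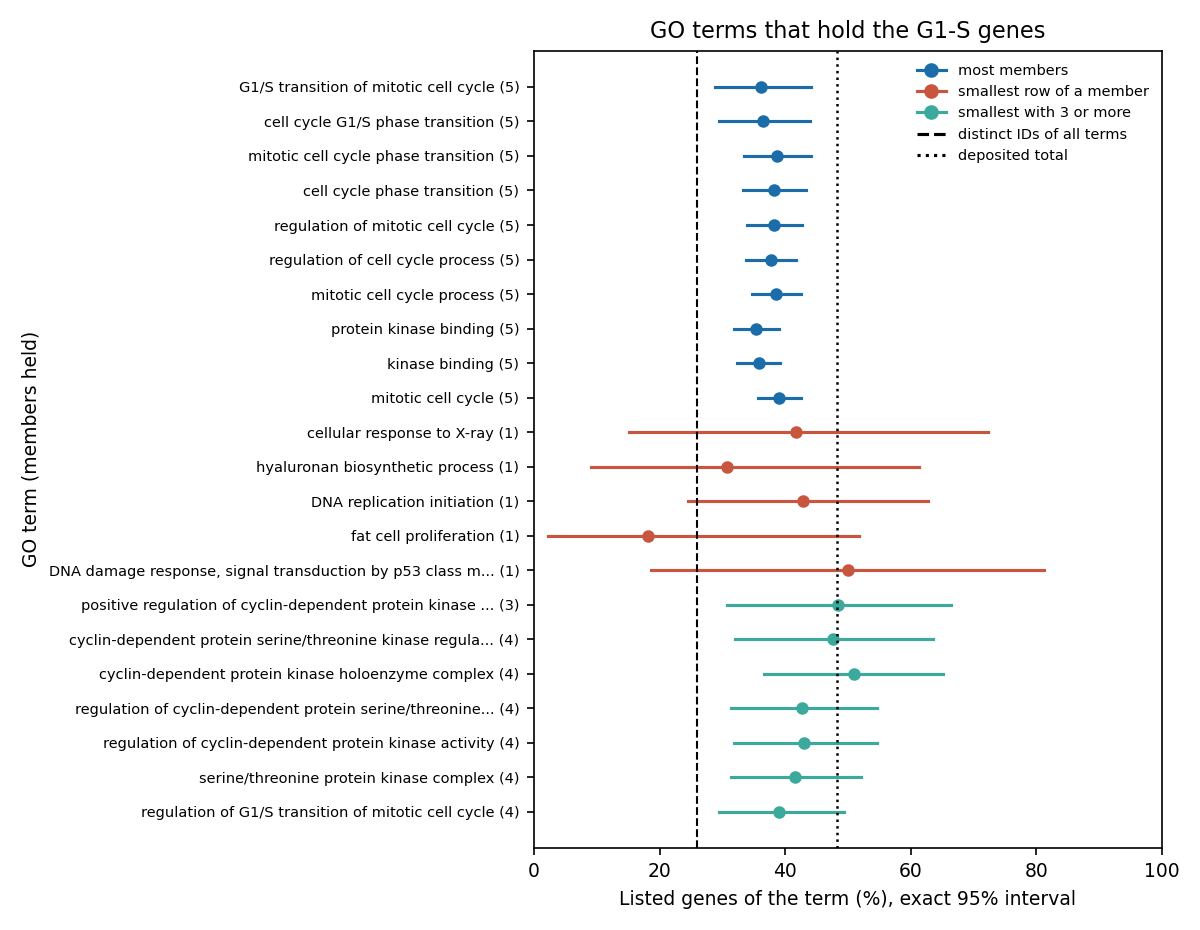
Share of listed genes (x axis, percent; points with exact 95% intervals as lines, counting error only) in the GO terms named in the text (y axis, number of G1-S genes held in brackets). The dashed line at 26.0% is the share of distinct IDs over all terms, counted as the terms are. The dotted line at 48.3% is the share from the deposited total, and what that total counts is not stated. The 10 smallest terms with all 5 genes lie between the lines. All terms shown were picked for holding listed genes, which raises their shares by itself.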

How the data were processed

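RNA fragments of MIN6 cells bound by an anti-m6A antibody were sequenced beside input RNA in pairs of 150 bp reads, per the labels' protocols. Per the submitters' processing notes, HOMER 4.9.1 and BWA 0.7.12 were used with mm10. How differential peaks were called is not given in the sources used here, and depth per library is unknown. The gene table, which lacks a header, gives a gene ID, a symbol and domain names per line. The deposited p-values of the KEGG table come, per the file headers, from a hypergeometric or Fisher exact test with Benjamini and Hochberg's correction, and those of the GO table are all 1. Numbers of genes in these tables were used as deposited, and 63 overflow lines of the GO table were joined to their terms.

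From these, lines per gene ID were counted. Symbols were matched to IDs through a table of gene names (9217 of 9225 IDs matched) and, where a symbol was missing there, through an unambiguous RefSeq synonym. Gene spans and classes are those of RefSeq, GRCm38.p6. Stand-ins are IDs whose name differs from that of the Entrez gene the KEGG table gives for them. No test was made of the condition. Intervals are exact Clopper-Pearson intervals at 95% and cover counting error only. The 10 genes and all lists were chosen with earlier results of these data known. Named were all 10 genes, the genes of the lists, Cell cycle and the 10 KEGG rows with the most of the 10 genes, the 10 GO rows with the most, and the smallest GO row of each listed gene. Genes of the GO rows outside the lists, the families, the overlapping genes, the stand-ins and the 7 smallest GO rows with at least 3 of the genes were chosen after values were seen. The alternatives were other matching of symbols, stricter listing, each of the 10 genes left out, and other ways to count rows. Only the counting of repeated IDs was tested on simulated data, not the matching of symbols or the reading of KEGG and GO rows. Software was SciPy 1.17.1, NumPy 2.4.6 and Matplotlib 3.10.9 under Python 3.11.15. Not every gene of the lists is reported here by name.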

Additional observations from a re-analysis of the deposited data

How the results depend on the processing

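No paired analysis was possible because each arm had 1 library of each kind and the files used hold no value per library. The number of G1-S genes listed, 5 of 10, was 5 by deposited symbol, 4 with at least 2 lines required, and 4 or 5 with any 1 gene left out. The 15 lines of these genes came to 5 when identical lines were counted once. The background share of 25.6% was 14.8% over all genes of the reference with a class, which include non-coding genes. The 71 input IDs of Cell cycle were 65 as distinct Entrez genes and 53 without stand-ins, the latter a count added after the data were seen. The 34 KEGG rows with a G1-S gene were 22 with at least 2 genes, 39 by Entrez gene (also added), and 34 under an adjusted p of 0.05, taken from the authors' deposited table. The 700 GO terms were 315 with 10 to 500 background genes and 175 with at least 3 of the genes. These settings only keep or drop entries of the same tables, so they do not measure stability. Without depth or a list of genes with enough RNA for a peak, listing cannot be separated from expression, which was not tested.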
